A study of Homo sapiens with 15 samples.

Results

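The 8 scavenger receptor genes of macrophages followed here were measured in THP-1 cells exposed to bacterial extracellular vesicles (BEVs), the membrane particles that bacteria shed. The genes were *MSR1*, *MARCO*, *CD36*, *SCARB1*, *CD163*, *MRC1*, *STAB1* and *CD68*, chosen by symbol, and all 8 were found among the 60286 genes of the count table. THP-1 is a human monocytic cell line derived from an acute leukaemia, and the cells were wild type and had not been turned into macrophages by any agent named in the labels. RNA was sequenced from 15 libraries in 5 groups of 3. Cells of the NC group received PBS only. EUC and EPL cells received 1 μg/mL of *E. coli* BEVs, collected by ultracentrifugation (UC) or with ε-poly-L-lysine (PL). SUC and SPL cells received 10 μg/mL of *S. aureus* BEVs, collected by UC or PL. Species and dose changed together, so they cannot be told apart. The study's methods give 6 h of incubation, while the labels give Day 0. The methods describe triplicates without saying whether they were separate cultures, so p-values measure the spread between these libraries, which may be technical.

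Scavenger receptors are cell surface and endosomal proteins that bind modified lipoproteins, bacterial surface molecules, dying cells and other polyanionic or lipid ligands. MSR1 and MARCO are collagen-like class A receptors that bind bacteria and modified lipoproteins. CD36 and SCARB1 are class B receptors: CD36 takes up oxidized lipoproteins and long-chain fatty acids, and SCARB1 binds high-density lipoprotein and transfers cholesteryl ester. CD163 clears haptoglobin-haemoglobin complexes, MRC1 is the mannose receptor, STAB1 is an endocytic receptor of alternatively activated and sinusoidal cells, and CD68 is a heavily glycosylated endosomal protein of the LAMP family. In monocytes several of these genes are known to rise as cells mature into macrophages.

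The libraries held 14399421 to 16637345 counts. All 10 myeloid markers had a mean of at least 1 CPM (counts scaled to the TMM-adjusted library size), with summed levels of 1381 to 1415 CPM in NC and 1847 to 2422 CPM in the libraries with BEVs. Single markers went both ways, and *SPI1* averaged 471 CPM in NC and 947 CPM over all 15 libraries. *CD14*, *CSF1R*, *TYROBP* and *CD4* also averaged more over all libraries than in NC, and *LYZ*, *ITGAM*, *CD33*, *FCGR1A* and *MPO* averaged less. Of the markers of other cells, the 4 T cell genes summed to at most 0.0624 CPM in any library, and *HBB* and *HBA1* of erythroid cells had no count. B cell markers summed to 1.38 to 5.43 CPM and the 3 fibroblast markers to 2.15 to 6.69 CPM. The fibroblast sum was higher in every EUC, EPL and SPL library than in any NC library. Of its genes, *COL1A1* averaged 0.746 CPM in NC and 2.64 CPM over all libraries, and *PDGFRB* averaged 1.76 and 1.15 CPM. The part of these markers in the results below was not tested. Libraries EUC3, EPL1 and SUC3 differed most from their group partners over all genes, and values without them are given where a call against NC changes. In bulk RNA, fewer cells expressing a gene and less RNA per cell cannot be told apart.

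*CD36* rose and *SCARB1* fell in every group with BEVs, and *STAB1* rose from almost no counts. *MARCO* had log2 fold changes of -1.28 to -1.21 in EUC, EPL and SUC and -0.59 in SPL. Its adjusted p did not pass the threshold in any of the 4 groups. *MSR1*, *CD163*, *MRC1* and *CD68* had too few counts to be tested. A gene was called changed at an adjusted p of at most 0.01 (edgeR's quasi-likelihood test, Benjamini-Hochberg over 17198 tested genes) and a change of 1 or more on the log2 scale, up or down. The 4 comparisons with NC share the same 3 NC libraries. *MARCO* passed the filter on low counts through its counts in NC, and *STAB1* through those in the groups with BEVs, so the number of members tested supports nothing. Of all tested genes, 9.43% were called up and 5.75% down in EUC, 9.38% and 5.15% in EPL, 6.82% and 3.06% in SUC, and 7.76% and 3.7% in SPL. Of the 8 members, 2 were called up and 1 down in each of these comparisons. Over all tested genes, 6.33% were called up and 2.41% down in all 4 comparisons.

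**Figure D1:**
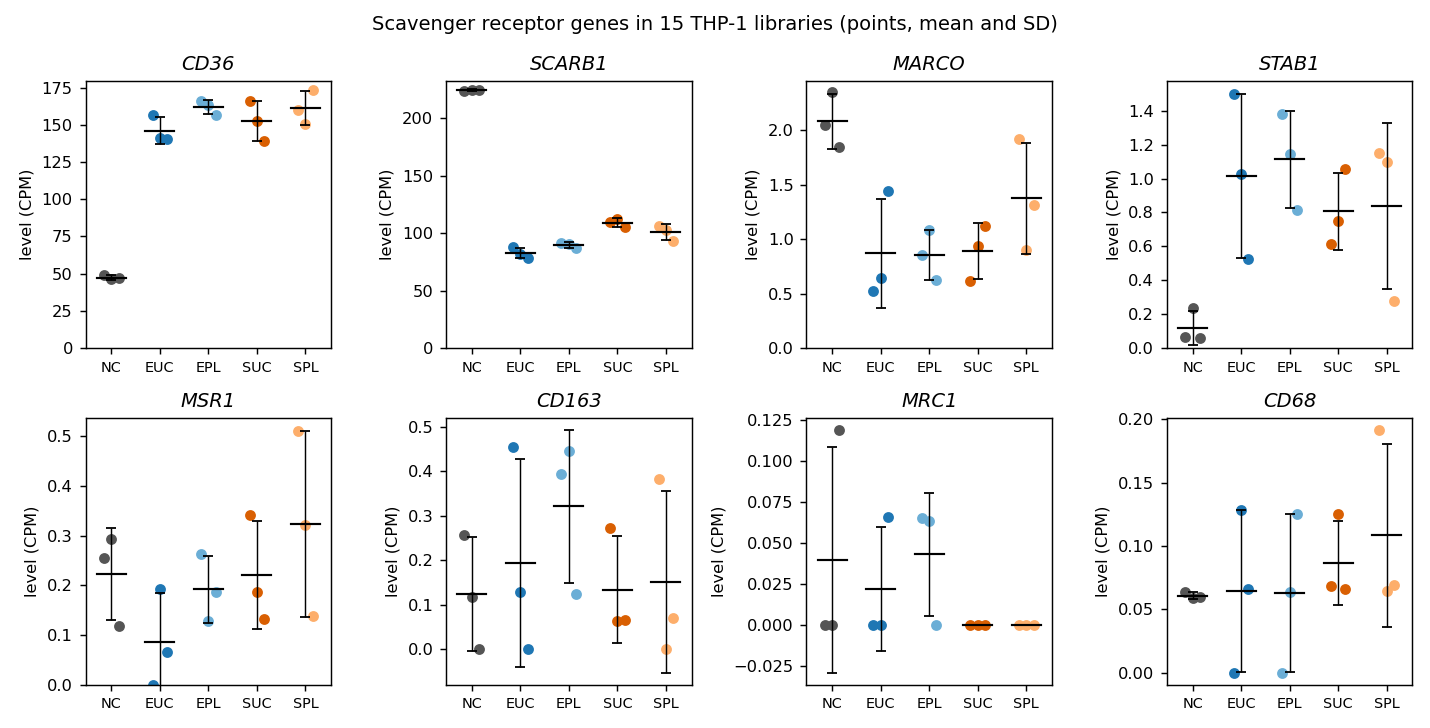
Level of each of the 8 scavenger receptor genes in CPM (vertical axes, each with its own scale) in the 5 groups, with 1 point per library, the horizontal bar at the mean and the error bar at 1 SD (n = 3). All 12 libraries with BEVs lie above all 3 NC libraries for *CD36* and *STAB1* and below them for *SCARB1*, while the lower row, from *MSR1* to *CD68*, stays at or under 0.511 CPM.

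The class B receptor *CD36* (ENSG00000135218) spans chr7:80369575-80679277 on the plus strand of GRCh38, by GENCODE release 44. Its level was 49.0, 46.2 and 47.0 CPM in NC1 to NC3. It was 157, 141 and 140.1 CPM in EUC1 to EUC3, and 166, 163 and 157 CPM in EPL1 to EPL3. It was 166, 152 and 139 CPM in SUC1 to SUC3, and 160.0, 151 and 173 CPM in SPL1 to SPL3. The lowest library with BEVs was thus far above the highest NC library, and the 4 groups with BEVs overlapped each other. These levels rest on 765 to 788 counts in NC and 2106 to 2565 counts in the other libraries.

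Against NC, *CD36* rose 3.08-fold in EUC (log2 fold change 1.62, SE 0.085, adjusted p = 7.09e-11) and 3.42-fold in EPL (1.77, SE 0.085, adjusted p = 2.44e-11). It rose 3.22-fold in SUC (1.69, SE 0.085, adjusted p = 6.9e-11) and 3.40-fold in SPL (1.77, SE 0.085, adjusted p = 3.19e-11). Without EUC3, EPL1 and SUC3 together, the log2 fold changes were between 1.65 and 1.77. By mean level the groups ran EPL, SPL, SUC, EUC and NC, and of these neighbours only EUC and NC did not overlap.

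The other class B receptor, *SCARB1* (ENSG00000073060, chr12:124776856-124882668, minus strand), moved the other way. Its level was 223, 225 and 224 CPM in NC1 to NC3. It was 87.5, 81.8 and 78.4 CPM in EUC1 to EUC3, and 91.5, 90.9 and 86.7 CPM in EPL1 to EPL3. It was 110.0, 113 and 105 CPM in SUC1 to SUC3, and 106, 103 and 92.8 CPM in SPL1 to SPL3. Every library with BEVs lay below every NC library, and the *E. coli* libraries lay below all *S. aureus* libraries. The counts behind them were 3488 to 3822 in NC and 1193 to 1801 elsewhere. Of the exon bases of *SCARB1*, 7.52% are also covered on the opposite strand by ENSG00000287242, which had 0 to 7 counts per library.

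*SCARB1* was 2.71-fold lower in EUC than in NC (log2 fold change -1.44, SE 0.075, adjusted p = 6.08e-11) and 2.50-fold lower in EPL (-1.32, SE 0.074, adjusted p = 1.98e-10). It was 2.05-fold lower in SUC (-1.04, SE 0.074, adjusted p = 6.68e-09) and 2.22-fold lower in SPL (-1.15, SE 0.074, adjusted p = 1.41e-09). The fold change in SUC was close to the threshold of 1, with a 95% interval from -1.19 to -0.88 on the log2 scale. By mean level the groups ran NC, SUC, SPL, EPL and EUC. The ranges of SUC and SPL overlapped, as did those of EPL and EUC, and SPL and EPL did not.

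**Figure D2:**
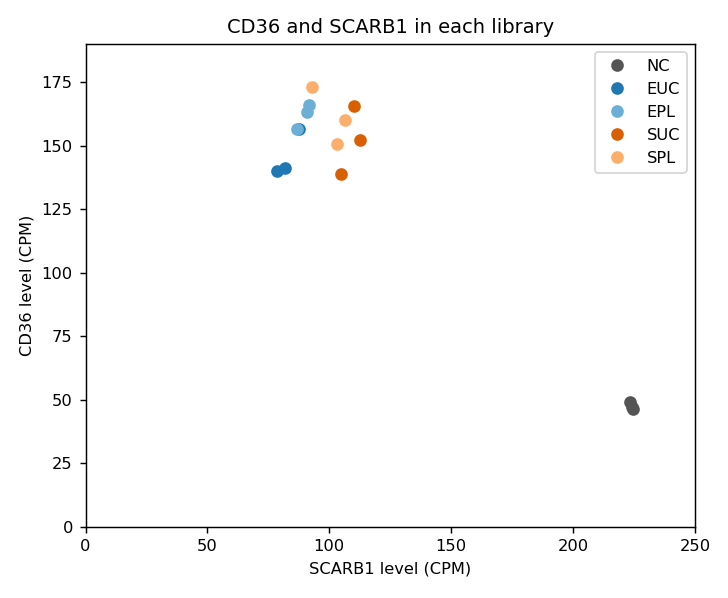
*CD36* level against *SCARB1* level, both in CPM on linear axes from 0, with 1 point for each of the 15 libraries, coloured by group. The 3 NC libraries lie at the lower right, near 47.4 CPM of *CD36* and 224 CPM of *SCARB1*, apart from the 12 libraries with BEVs at the upper left, where the *S. aureus* libraries lie to the right of the *E. coli* libraries.

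Per kilobase of annotated exon, the class B receptors changed places. In NC, *SCARB1* stood at 15.1 ± 0.0543 RPKM (SD, n = 3) and *CD36* at 4.36 ± 0.129 RPKM. Over the 12 libraries with BEVs, *CD36* stood at 14.3 ± 1.02 RPKM and *SCARB1* at 6.42 ± 0.766 RPKM. The ratio of *CD36* counts to *SCARB1* counts within a library, which does not depend on library size and whose scale depends on gene length, was 0.206 to 0.219 in NC. It was 1.73 to 1.79 in EUC, 1.80 to 1.81 in EPL, 1.32 to 1.51 in SUC and 1.46 to 1.87 in SPL. The ratio was higher in each library with BEVs than in any NC library.

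*STAB1* (ENSG00000010327, chr3:52495338-52524495, plus strand) had 1, 4 and 1 counts in NC1 to NC3. It had 23, 16 and 8 counts in EUC1 to EUC3, and 21, 18 and 13 counts in EPL1 to EPL3. It had 9, 12 and 16 counts in SUC1 to SUC3, and 18, 17 and 4 counts in SPL1 to SPL3. No library with BEVs had fewer counts than the highest NC library, and SPL3 equalled NC2 in counts but was above it in CPM, at 0.276 against 0.235. The mean level was 0.120 ± 0.100 CPM in NC (SD, n = 3). In EUC it was 1.02 ± 0.485 and in EPL 1.11 ± 0.285 CPM, in SUC 0.807 ± 0.226 and in SPL 0.840 ± 0.490 CPM. Even at its highest, then, this was a gene of about 1 CPM.

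The fitted log2 fold change of *STAB1* was 2.99 in EUC (95% interval 1.59 to 4.38, adjusted p = 0.00143) and 3.11 in EPL (1.74 to 4.49, adjusted p = 0.000955). It was 2.66 in SUC (1.22 to 4.1, adjusted p = 0.00606) and 2.73 in SPL (1.3 to 4.15, adjusted p = 0.00437). From the summed counts alone, 6 in NC against 52 in EPL, the ratio of levels in EPL was 9.12, with an exact 95% interval of 3.92 to 26.0 that covers counting error only. The calls in EUC, SUC and SPL depended on single libraries. Without NC3 the adjusted p in EUC was 0.0102. In SUC it was 0.031 without NC1, 0.0332 without NC3, 0.0133 without SUC2 and 0.0244 without SUC3. In SPL it was 0.0236 without NC1, 0.0254 without NC3, 0.0232 without SPL1 and 0.0209 without SPL2. In every one of these fits *STAB1* remained higher than in NC, and the call in EPL was kept under all alternatives tried.

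The class A receptor *MARCO* (ENSG00000019169, chr2:118942194-118994660, plus strand) had 32, 40 and 31 counts in NC1 to NC3. It had 8, 10 and 22 counts in EUC1 to EUC3, and 13, 17 and 10 counts in EPL1 to EPL3. It had 9, 15 and 17 counts in SUC1 to SUC3, and 30, 14 and 19 counts in SPL1 to SPL3. All libraries of EUC, EPL and SUC were below all NC libraries, and SPL1 was within the NC range, at 1.92 CPM against 1.85 to 2.35 CPM. The mean was 2.08 ± 0.254 CPM in NC and 0.998 ± 0.409 CPM over the 12 libraries with BEVs (SD).

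The log2 fold change of *MARCO* was -1.26 in EUC (SE 0.381, adjusted p = 0.0138), -1.28 in EPL (SE 0.381, adjusted p = 0.0128), -1.21 in SUC (SE 0.38, adjusted p = 0.0218) and -0.59 in SPL (SE 0.361, adjusted p = 0.23). None of these passed the threshold of 0.01. Without the filter on low counts, edgeR gave an adjusted p of 0.00793 in EUC and 0.00641 in EPL. EUC3 had the most *MARCO* counts of its group, and without it the adjusted p was 0.0014 in EUC (log2 fold change -1.83), 0.00433 in EPL and 0.00844 in SUC. Without EUC1 it was 0.00896 in EPL. The difference in SPL missed the threshold in every fit, with a 95% interval from -1.36 to 0.17.

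**Figure D3:**
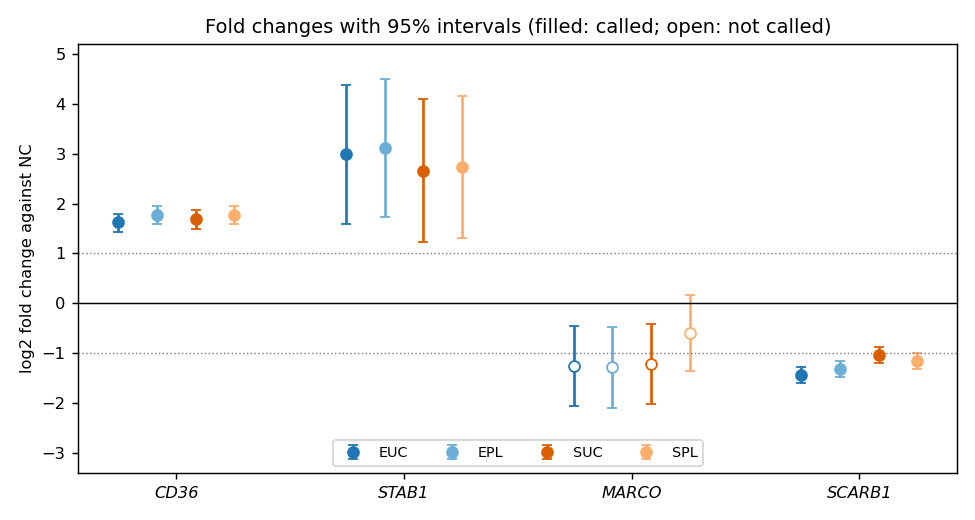
Log2 fold change against NC (vertical axis) of the 4 tested members in EUC, EPL, SUC and SPL, with 95% intervals from the edgeR fit, filled where called and open where not, and dotted lines at 1 and -1. *CD36* and *SCARB1* have narrow intervals on opposite sides of 0, while those of *STAB1* run from 1.22 to 4.49 over the 4 groups and those of *MARCO* in SPL cross 0.

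*MSR1* (ENSG00000038945, chromosome 8), the prototype class A receptor, had 4, 5 and 2 counts in NC1 to NC3. It had 0 to 3 counts in EUC, 2 to 4 in EPL, 2 to 5 in SUC and 2 to 8 in SPL. The groups overlapped, and the ratio of summed counts to NC ran from 0.389 in EUC (exact 95% interval 0.0903 to 1.31) to 1.48 in SPL (0.633 to 3.55). *CD163* (ENSG00000177575, chromosome 12), the haemoglobin receptor, had 0 to 4 counts in NC, 0 to 7 in EUC, 2 to 7 in EPL, 1 to 4 in SUC and 0 to 6 in SPL. Its ratio to NC was largest in EPL, at 2.63 with an interval of 0.965 to 8.28. *MRC1* (ENSG00000260314, chromosome 10) had 2 counts in NC3, 1 in EUC3, 1 each in EPL1 and EPL2, and none in the other 11 libraries. When the filter on low counts was left out, none of these 3 genes or *CD68* was called by edgeR in any of 7 comparisons, with no unadjusted p below 0.127. At this depth the upper bounds of the ratios to NC were 1.31 to 3.55 for *MSR1* and 4.04 to 8.28 for *CD163*. The lower bounds were 0.0903 to 0.633 for *MSR1* and 0.288 to 0.965 for *CD163*. Differences within these bounds, which cover counting error only, could not be detected.

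*CD68* (ENSG00000129226, chr17:7579491-7582111, plus strand) had 1 count in each NC library and 0 to 3 counts in the others. This marker of the monocyte and macrophage lineage was therefore close to absent in the table, although the other myeloid markers were present. Of its 2163 annotated exon bases, 81.60% are also exon of ENSG00000264772, a long non-coding gene on the same strand that reaches back into *EIF4A1*. On the opposite strand 6.84% are covered by ENSG00000233223, and 85.62% are covered by either. ENSG00000264772 itself had 0 to 2 counts per library, and *EIF4A1* had 113 to 238. ENSG00000233223 had 36 to 54 counts in NC, 68 to 100 in EUC, 66 to 80 in EPL, 61 to 73 in SUC and 54 to 81 in SPL. A read that falls on exons of more than 1 gene is dropped, split or given to 1 of them according to the counting settings, which no source used here gives. The *CD68* level is therefore uncertain, and the part of the overlap in it was not tested.

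**Figure D4:**
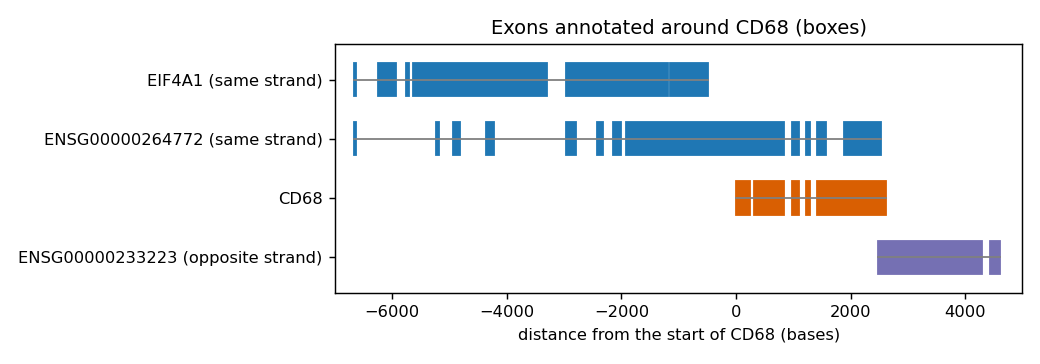
Annotated exons (boxes) of *CD68*, of 2 long non-coding genes and of *EIF4A1*, by distance in bases from the start of *CD68* (GENCODE release 44). The exons of ENSG00000264772 lie over 81.60% of the exon bases of *CD68* on the same strand.

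RefSeq promoter entries (GRCh38.p14) matched 5 members, with 6 entries for *CD36* and 1 each for *MARCO*, *STAB1*, *CD163* and *CD68*. *MSR1*, *MRC1* and *SCARB1* had no matching entry. Shown are the 250 bases before a start for the members that rose, *CD36* and *STAB1*, using a window without any annotated exon of the gene. Capitals mark matches on either strand to AP-1 TGACTCA, the nuclear receptor half-site AGGTCA, PU.1 GAGGAA, Sp1 GGGCGG, the TATA box TATAAA and NF-kappa B GGGNNNNNCC.
CD36, chr7:80638266-80638515, plus strand: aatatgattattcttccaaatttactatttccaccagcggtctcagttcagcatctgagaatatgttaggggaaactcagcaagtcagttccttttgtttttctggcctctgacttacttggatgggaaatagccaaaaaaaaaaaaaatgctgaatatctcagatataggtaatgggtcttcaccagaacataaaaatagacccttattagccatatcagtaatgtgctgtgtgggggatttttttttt
STAB1, chr3:52495088-52495337, plus strand: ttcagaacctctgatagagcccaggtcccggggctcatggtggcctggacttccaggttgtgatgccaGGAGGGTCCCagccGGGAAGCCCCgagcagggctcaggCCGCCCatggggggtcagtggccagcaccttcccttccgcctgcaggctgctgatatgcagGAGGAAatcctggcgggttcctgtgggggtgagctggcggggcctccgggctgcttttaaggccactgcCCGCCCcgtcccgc
The *CD36* window shown held none of the 6 motifs. Of its other 5 windows, which hold annotated exon bases, 4 held a match, with PU.1 letters in 3, a TATA box in 2 and AP-1 letters in 1. The *STAB1* window held 1 PU.1 match, 2 Sp1 matches and 2 NF-kappa B matches. Among the 35116 promoter windows of this length, 23.6% held the PU.1 letters, 42.6% the Sp1 letters and 54.4% the NF-kappa B letters. AP-1 letters were found in 4.2%, the half-site in 12.1% and the TATA box in 10.7%. These matches describe letters only, and which of the *CD36* starts was used cannot be read from counts per gene.

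The methods of collecting BEVs were compared within each species. Between EPL and EUC, and between SPL and SUC, edgeR called 0 of the 8 members, none had an unadjusted p below 0.05, and DESeq2 called 0 as well. Of all tested genes, 0.0% were called between EPL and EUC and 0.00581% between SPL and SUC. For *CD36* the 95% interval of the log2 difference was -0.02 to 0.32 for EPL against EUC and -0.09 to 0.25 for SPL against SUC. For *SCARB1* it was -0.04 to 0.28 and -0.27 to 0.04. For *STAB1* (-0.87 to 1.13 and -0.99 to 1.13) and *MARCO* (-0.92 to 0.87 and -0.22 to 1.46) the intervals were several times wider.

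Between the species, the mean of EUC and EPL was set against the mean of SUC and SPL. *SCARB1* was 1.22-fold lower with *E. coli* BEVs (log2 difference -0.29, SE 0.052, adjusted p = 0.00206 by edgeR), below the threshold for a call. Of all tested genes, 1.0% passed the adjusted p threshold of 0.01 in the lower direction and 0.686% were called in either direction. EUC averaged 82.6 ± 4.61 CPM and EPL 89.7 ± 2.60 CPM, whereas SUC averaged 109 ± 3.82 CPM and SPL 101 ± 7.09 CPM (SD, n = 3). The adjusted p stayed at or below 0.00858 when any 1 library was left out. The other 3 tested members did not pass: *CD36* -0.03 (95% interval -0.15 to 0.1), *STAB1* 0.36 (-0.37 to 1.09) and *MARCO* -0.36 (-0.98 to 0.25). No member was called by edgeR or DESeq2 here, and 1, *SCARB1*, had an unadjusted p below 0.05. The difference between collection methods, compared between the species, gave 0 calls among the members and 0.0% of all tested genes by edgeR, and 0 by DESeq2. Only *SCARB1* had an unadjusted p below 0.05 there, at 0.0387, with a log2 value of 0.23 (95% interval 0.01 to 0.46, adjusted p = 1).

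The genes whose pattern over the 15 libraries was most like that of a called member were found by the root mean square difference of centred log2 CPM among 14526 tested genes with a mean of at least 1 CPM. For *CD36* these were *VEGFA* (0.114), *MYD88* (0.117) and *TMEM138* (0.123), all at 43.2 to 50.3 CPM in NC and 133 to 164 CPM in the groups with BEVs by mean. For *SCARB1* they were *SLC19A1* (0.083), *ESYT1* (0.085) and *SLC29A1* (0.09). For *STAB1* they were *TUBA8* (0.382), *PLXNA2* (0.395) and *GPC5* (0.462), a looser likeness at low counts. The libraries share depth and scaling within each gene pair, and no test was made.

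Among 13 other scavenger receptor genes, 11 were tested, and 3 were called up and 1 down in EUC and in EPL, 1 up in SUC and 3 up in SPL. Of all tested genes, 9.43%, 9.38%, 6.82% and 7.76% were called up in EUC, EPL, SUC and SPL, and 5.75%, 5.15%, 3.06% and 3.7% down. This list and those below were chosen with earlier results of these data known, so their counts of calls support nothing. *OLR1*, the lectin-like receptor of oxidized lipoprotein, was the 1 gene called up in all 4. It had 1 count in the 3 NC libraries together, 70 to 93 counts per library in EUC, 89 to 102 in EPL, 17 to 30 in SUC and 36 to 39 in SPL. The ratio of summed counts to NC was 255 in EUC (exact 95% interval 45.3 to 10100) and 76.6 in SUC (13.3 to 3068). *SCARF1*, a class F receptor, rose by 1.66 in EUC, 1.68 in EPL and 1.25 in SPL on the log2 scale (adjusted p = 8.27e-07, 7.34e-07 and 3.61e-05) and stood at 0.83 in SUC (adjusted p = 0.00228). *SCARA3* rose by 1.99 in EPL (adjusted p = 0.000601). It was also called in EUC (1.70) and SPL (1.55), but EUC3 had only 25 counts against 80 and 90 in its partners. Leaving out NC1, EUC1 or EUC2 raised the adjusted p in EUC to between 0.013 and 0.0157. Fitted to EUC and NC only, the adjusted p was 0.0176. In SPL leaving out NC1, NC2, NC3, SPL2 or SPL3 raised it to between 0.0144 and 0.0352. In SUC *SCARA3* was at 1.24 (adjusted p = 0.0297) and was called without EUC3 (adjusted p = 0.00277) or without the filter on low counts (adjusted p = 9.17e-05). The gene called down in EUC (-2.26) and EPL (-2.28) was *MEGF10*, an engulfment receptor with 159 counts in all 15 libraries. It lost both calls without NC3 and the one in EPL also without EPL2 (adjusted p = 0.0114 to 0.0142). Fitted to the compared groups only, it lost the call in EUC (adjusted p = 0.0109) and was called in SPL (-1.415, adjusted p = 0.00307). In SPL it was also called (-1.42, adjusted p = 0.00812) without EUC3, EPL1 and SUC3 together. The lysosomal class B relative *SCARB2* was at 0.14 to 0.26, and *CXCL16*, a membrane chemokine that binds oxidized lipoprotein, at 0.10 to 0.71, and neither was called.

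The lipid uptake and efflux list, with 12 of 13 genes tested, had 1 call up and 1 down in EUC and in EPL, and 0 up and 1 down in SUC and in SPL. *VLDLR*, a lipoprotein receptor, fell in all 4 groups, from 119 ± 3.4 CPM in NC to 39.1 ± 2.6 CPM in EUC and 48.5 ± 3.1 CPM in SUC (log2 fold changes -1.60 and -1.29, adjusted p = 3.99e-10 and 9.4e-09). *ABCA1*, the cholesterol efflux transporter, rose by 1.69 in EUC and 1.87 in EPL (adjusted p = 6.27e-06 and 2e-06) and was at 0.77 in SUC and 0.41 in SPL.

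All 15 transcription factors of macrophage identity and lipid sensing were tested. In EUC 5 were called up and 1 down, in EPL 5 up and 0 down, in SUC 4 up and 0 down, and in SPL 5 up and 1 down. Up in all 4 were 6.33% of all tested genes. *EGR2*, *MAF*, *NFE2L2* and *SPI1* were up in all 4, and the fifth in EUC, EPL and SPL was the lipid sensor *PPARD*, at 1.15 to 1.21. *SPI1*, which encodes the myeloid factor PU.1, went from 471 ± 15.9 CPM in NC to 1198 ± 171 CPM in EUC and 960.3 ± 107 CPM in SUC (SD, n = 3), and without SUC3 its log2 fold change in SUC was 0.93, which is no call. *MAF* rose by 1.45 to 2.14 and *EGR2* by 4.17 to 4.63 on the log2 scale. *NFE2L2*, the oxidative stress factor NRF2, rose by 1.90 to 2.02, and 38.38% of its exon bases are shared with other annotated genes. *PPARG*, the lipid sensor known to drive *CD36*, was called down in EUC (-1.10, adjusted p = 0.000574) and SPL (-1.13, adjusted p = 0.000585) and was at -0.80 in EPL and -0.74 in SUC. Without EUC1 its log2 fold change in EUC was -0.86, which is no call. Fitted to EUC and NC only, its adjusted p in EUC was 0.0111, also no call. *NR1H3*, the oxysterol receptor, was at -0.65 to -0.56 with adjusted p of 0.00196 to 0.00751, and was not called.

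**Figure D5:**
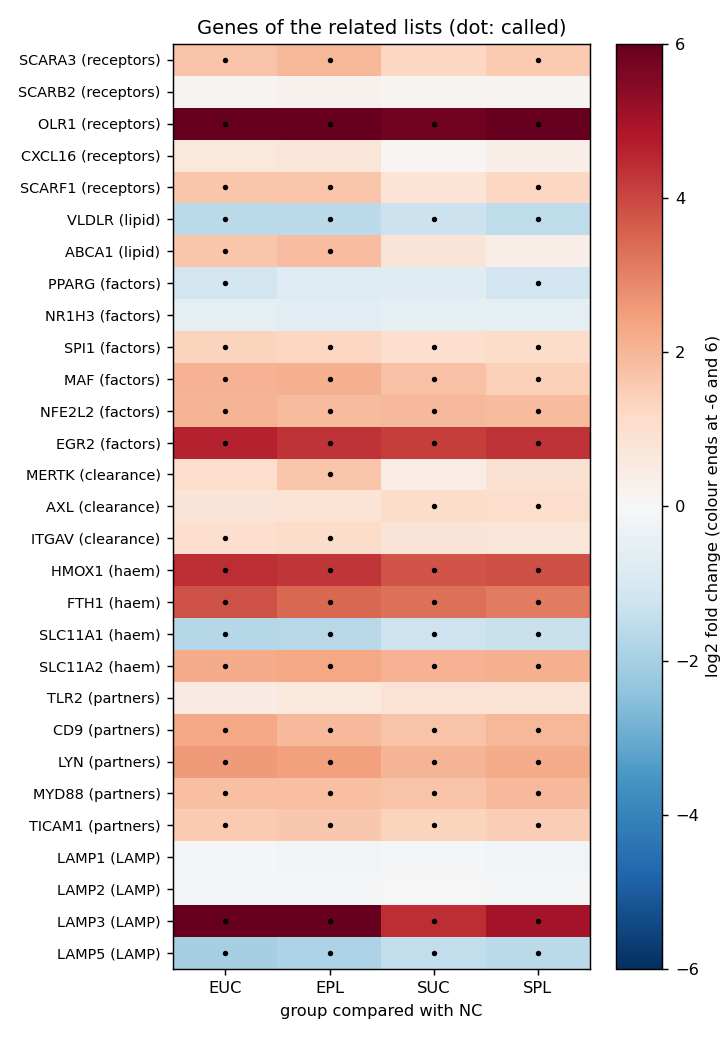
Log2 fold change against NC (colour) of named genes of the related lists in EUC, EPL, SUC and SPL, with a dot where called. *EGR2*, *HMOX1* and *LAMP3* are dark red in all 4 columns and *VLDLR*, *SLC11A1* and *LAMP5* blue in all 4, and the fitted value of *OLR1* has no fixed size because NC held 1 count.

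In the haemoglobin and haem list, 12 of 13 genes were tested and 5 were called up in each comparison with NC, with 1 called down in EUC, SUC and SPL and 2 in EPL. *FTH1*, *FTL*, *HMOX1*, *SLC11A2* and *SLC48A1* were up and *SLC11A1* was down in all 4. Over all tested genes the shares in all 4 were 6.33% up and 2.41% down. The second gene down in EPL was *HP*, which encodes haptoglobin and had 173 counts in all libraries (-1.79, adjusted p = 0.00665). It lost that call without NC1, NC2, NC3, EPL1, EPL3 or SPL1 (adjusted p = 0.0101 to 0.0379). In SPL it was at -1.54 and was called without SUC1 or without EUC3, EPL1 and SUC3 together (adjusted p = 0.00486 and 0.00828). It was also called there by edgeR fitted to the compared groups only (adjusted p = 0.00141). *HMOX1*, which degrades haem, went from 40.1 ± 1.4 CPM in NC to 786 ± 72 CPM in EPL and 582 ± 20 CPM in SPL. *SLC11A2*, an iron transporter, rose by 2.07 to 2.31 and *SLC11A1*, the phagosomal metal transporter, fell by 1.22 to 1.70 on the log2 scale. *FTH1*, ferritin heavy chain, rose by 3.12 to 3.82, but 63.22% of its exon bases overlap another gene and it has many near-identical copies, so its level is uncertain. *CD163*, which feeds this pathway, stayed at 0 to 7 counts.

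Co-receptors and signalling partners were tested for 12 of 13 genes. In EUC 8 were called up and 1 down, in EPL 6 up, and in SUC and SPL 5 up each. *CD9*, *LYN*, *MYD88* and *TICAM1* rose in all 4. The fifth was *CD14* in SUC, where it fell under the threshold of 1 without NC1 or SUC3 (0.98 and 0.9), and the kinase *FYN* in SPL. The gene down in EUC was the kinase *SYK* (-1.003, adjusted p = 1.69e-07), just past the threshold of 1. It was not called by DESeq2 (-0.99) or without NC2 (-0.99) or EUC3 (-0.92). Nor was it called by edgeR with DESeq2 size factors (-0.995) or fitted to the compared groups only (-0.993). *TLR4*, called in EUC (1.31) and EPL (1.43), was at 0.996 in SPL, just under the threshold of 1. DESeq2 called it there (1.005), and so did edgeR with DESeq2 size factors (1.003), without the filter on low counts (1.003) and fitted to the compared groups (1.008). It was also called without any 1 library other than NC3, EPL1, SUC3 or SPL1 (1.005 to 1.067), and without EUC3, EPL1 and SUC3 together (1.001). The kinase *LYN*, which couples to CD36, went from 143 ± 0.71 CPM in NC to 843 ± 24 CPM in EUC and 597 ± 41 CPM in SUC, and *CD9*, a tetraspanin partner of CD36, rose by 1.69 to 2.33 on the log2 scale. The adaptors *MYD88* and *TICAM1* rose by 1.71 to 1.92 and 1.33 to 1.64. *TLR2*, which works with CD36 on bacterial lipopeptides, was at 0.50 to 0.86, with adjusted p of 2.22e-07 to 8.09e-05, and was not called.

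Of 13 tested genes among 17 of apoptotic cell clearance, 4 were called up in EUC and in EPL and 2 in SUC and in SPL. The count in EUC was 2 without NC1, EUC1 or EUC2 and 7 without the filter on low counts. In SPL the count was 0 without NC2 and 1 without NC1, SPL1 or SPL3. Fitted to the compared groups only, the count was 2 in EPL and 1 in SPL. In those fits *GULP1* was not tested in EPL or SPL, nor *C1QC* in EPL. *GULP1*, an engulfment adaptor with 193 counts in all libraries, was called in all 4, but its call in SPL (2.75, adjusted p = 0.00406) was lost without NC1, NC2, SPL2 or SPL3 (adjusted p = 0.0149 to 0.0187). The complement genes *C1QC*, called in EUC and EPL, and *C1QA*, called in EUC, had 108 and 131 counts in all. *C1QA* lost its call without NC1, EUC1 or EUC2 (adjusted p = 0.0111 to 0.0226), and it was called in SPL without SUC3 (1.81, adjusted p = 0.00915). *AXL* was called in SUC (1.10) and SPL (1.03), and fell just under the threshold of 1 in SPL without NC2 (0.97) or SPL1 (0.995). *ITGAV* was called in EUC (1.01) and EPL (1.10). In EUC it fell just under without NC1, EUC1 or EUC2 (0.982 to 0.995). *MERTK* was called in EPL (1.65, adjusted p = 0.000425). In EUC it was at 1.04 (adjusted p = 0.0163) and was called without EUC3, SPL1 or SPL2 (adjusted p = 0.00577 to 0.00958), by DESeq2 (adjusted p = 0.00879) and without the filter on low counts (adjusted p = 0.000189). In SPL it was at 0.94 and was called without SPL2 (1.22, adjusted p = 0.00636).

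All 10 genes of the LAMP and phagolysosomal list were tested, and 1 was called up and 1 down in each comparison with NC. These were *LAMP3*, from 0.563 ± 0.23 CPM in NC to 46.5 ± 2.0 CPM in EUC and 12.4 ± 2.9 CPM in SUC, and *LAMP5*, which fell by 1.46 to 2.0 on the log2 scale. The abundant *LAMP1* and *LAMP2* had log2 fold changes of -0.15 to 0.04. Of the 11 genes for receptor shedding and endocytic adaptors, 0 were called by edgeR or DESeq2 in any of the 4 comparisons, and 3 to 6 had an unadjusted p below 0.05 by edgeR. *RHBDF2*, at 0.88 in EUC and 0.98 in EPL, was called up in EUC without EUC3 (1.02) and in EPL without NC1 (1.04). *GGA2*, at -0.997 in EUC, was called down there without NC1 or EUC1 (-1.04).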

How the data were processed

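The authors extracted total RNA with Trizol, made libraries with an NEB Next Ultra kit and sequenced paired ends. The submitters' processing notes name FastQC 0.11.5, HISAT2 2.1.0, StringTie 1.3.3b, featureCounts, DESeq 1.28.0 and hg38, without roles. The authors deposited raw counts of reads per Ensembl gene. No source used here gives the strand setting or the annotation release. The table had 60286 genes, 23219 without a count, 0 rows without a gene name and 0 unused columns.

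The deposited counts, 14399421 to 16637345 per library, were fitted with edgeR 4.0.16 in R 4.3.3 (filterByExpr, which left 17198 genes, TMM, glmQLFit and glmQLFTest) to all 15 libraries without a replicate block. The common biological coefficient of variation was 0.118. RPKM values used exon lengths of GENCODE release 44. The study's thresholds were used for calls (adjusted p up to 0.01, and 1 or more on the log2 scale up or down). SE is the size of the log2 fold change divided by the square root of F. DESeq2 1.42.0, other scaling, no filter, a replicate block, fits to the compared groups and leaving out each library were tried. Leaving out EUC3, EPL1 and SUC3 together was chosen after seeing the data. The scripts were tested on simulated data.

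Libraries were grouped by their titles. Members and gene lists were chosen with earlier results of these data known, and 3 genes of the lists are not reported here. Of the lists, genes called in at least 1 comparison with NC with a mean of at least 1 CPM are named, at most 4 a list by mean size of change, besides *PPARG*, *NR1H3*, *HMOX1*, *OLR1*, *CXCL16*, *SCARB2*, *TLR2*, *LAMP1* and *LAMP2*. Chosen after their values were seen, the genes behind counts of 5 or fewer and some, not all, of the genes whose call depends on the setting are also named. Intervals from summed counts cover counting error only.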

Additional observations from a re-analysis of the deposited data

Results flagged for a closer look

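Some genes responded differently to the BEVs of the *E. coli* groups (1 μg/mL) and the *S. aureus* groups (10 μg/mL), by the edgeR test of the difference itself at an adjusted p of at most 0.01. Among the members this was *SCARB1*, with a log2 difference of -0.29 (*E. coli* minus *S. aureus*), lower in 6 of 6 *E. coli* libraries than in any *S. aureus* library. Among the related genes that the naming rule picked, higher with *E. coli* BEVs were *LAMP3* at 1.6, *OLR1* at 1.51, *ABCA1* at 1.19, *SCARF1* at 0.63, *HMOX1* at 0.54, *LYN* at 0.37 and *ITGAV* at 0.3. Lower were *LAMP5* at -0.38 and *TLR2* at -0.28. Of the other genes on the lists, *FYN* at 0.71, *SLC40A1* at 0.55, *TLR4* at 0.46 and *VAV1* at 0.23 were also higher and *TIMP3* at -0.48 lower, and all but *VAV1* passed when any 1 library was left out. *VAV1* missed the threshold when any of 14 single libraries was left out, with an adjusted p of up to 0.0331. The differences of *SCARF1*, *ITGAV*, *TLR2* and *LAMP5* missed the threshold when some single libraries were left out. The adjusted p then reached at most 0.0114 for *SCARF1* (EUC2, EPL2, SUC2 or SPL3 left out) and 0.0154 for *ITGAV* (EUC2, EPL2, EPL3, SUC2, SPL1 or SPL2). It reached 0.0171 for *TLR2* (EUC2, SUC1, SUC2, SPL1 or SPL3) and 0.0175 for *LAMP5* (EUC1, EUC2, EPL1, EPL2, SUC2, SUC3, SPL1 or SPL2). Of all tested genes, 1.0% passed in the lower direction and 0.686% were called in either direction. The share that passed in the higher direction is not given here, so the number of genes named supports nothing. Species and dose cannot be told apart here.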

How the results depend on the processing

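*CD36* and *SCARB1* kept their direction and their calls against NC under every alternative tried. *STAB1* did not pass the filter when EUC, SUC or SPL was fitted with NC alone, which left 2 members called there, and 4 were called in EPL, *MARCO* included. *MARCO* against NC had log2 fold changes of -1.83 to -0.99 in EUC, -1.49 to -1.10 in EPL and -1.41 to -1.01 in SUC over the fits that left out 1 library, with adjusted p from 0.0014 to 0.0877. Without the filter on low counts it was also called in EUC and EPL. Without EUC3, EPL1 and SUC3 together it was called in EUC (-1.83, adjusted p = 0.000752), EPL (adjusted p = 0.00821) and SUC (-1.40, adjusted p = 0.0066). Of the list genes, this fit also called *SCARA3* in SUC (1.51) and *MERTK* (1.22) and *RHBDF2* (1.03) in EUC. It no longer called *SPI1* (0.94) and *CD14* (0.91) in SUC and *SYK* in EUC (-0.91). Of 4806 recomputed values, 4675 kept their side of the thresholds or stayed within 1.5 times the reported count. Another 53 no longer passed, 20 newly passed, 41 list counts moved further and 17 changed sign. This tally covers the members, the genes picked by the naming rule and the counts of calls. It leaves out fits in which a gene was not tested, and single values of the other list genes, such as *TLR4*. The sign changes were all in differences that were not called, and their cause was not tested. For EPL against EUC, *MARCO* ran from -0.28 to 0.55 when 1 library was left out and was 0.55 without EUC3, EPL1 and SUC3 together, and *STAB1* ran from -0.18 to 0.51 and was -0.36. For SPL against SUC, *STAB1* ran from -0.21 to 0.48. The difference of methods between species ran from -0.35 to 0.44 for *STAB1* and was -0.66 without the 3 libraries. *CXCL16* in SUC ran from -0.23 to 0.27 and was -0.23 without them. Scaling by DESeq2 size factors moved the median of all genes by at most 0.009 log2.

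Deviations from group means were correlated across genes between libraries of different groups. The correlations ran from -0.452 to 0.525 for same-numbered libraries and from -0.484 to 0.488 for differently numbered ones. These extremes all involved EUC3, EPL1 or SUC3, so the check cannot show whether the replicate numbers pair the libraries. With the replicate number as a block, 3 members were called in each comparison with NC and 0 in the others, and *STAB1* for SPL against SUC was -0.049 in place of 0.068. The low counts of *MSR1*, *CD163*, *MRC1* and *CD68* set the limit of detection for these genes. For *CD68* the exon overlap also leaves the level itself uncertain.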
